A study of Mus musculus with 22 samples.

Results

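The genes described here are 10 genes of neurogenesis and early neurons, out of 32285 genes in the count matrices: Neurog1, Neurog2, Tubb3, Stmn2, Stmn3, Ina, Crmp1, Elavl3, Elavl4 and Dcx. They were picked by symbol, with results of these data already known, and were to be followed over the deposited cell type names and over the days, day 4.5 against day 5 above all. The values that led the choice were therefore those of the step from day 4.5 to day 5 in the largest experiment and of the cell type names, and these are given below as descriptions, with no test. Tests were kept for other contrasts, namely other steps in time and the same day between experiments, and some of these share gastruloids with that step. The other days may have entered the choice too, so calls of the 10 genes are no independent evidence.

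The samples were gastruloids, aggregates of mouse embryonic stem cells that elongate and form derivatives of the germ layers in culture. All came from the wild-type line E14Tg2A, were aggregated in N2B27 medium and received a pulse of the GSK3 inhibitor CHIR99021, so that no group lacks that treatment and time after aggregation, experiment and the single gastruloid are what differs. In MULTI-seq, the cells of each gastruloid are tagged with a lipid-anchored barcode before they are pooled and loaded on 10X Genomics lanes, and gastruloids are the replicates used here. Of 136 gastruloids with cells, 135 had at least 30 cells and were used. MULTI-seq 1 gave 24, all of day 5. MULTI-seq 2 gave 11 (day 4) and 12 (day 4.5), and MULTI-seq 3 gave 24 (day 3) and 16 for each of days 3.5, 4, 4.5 and 5. Days 3.5 and 4 of MULTI-seq 3 shared a pool of cells, as did days 4.5 and 5 of MULTI-seq 3 and days 4 and 4.5 of MULTI-seq 2. The labels say that representative gastruloids were picked for barcoding, and all derive from a single cell line, which limits them as a model.

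In the developing nervous system, the proneural transcription factors Neurog1 and Neurog2 are switched on in scattered progenitors, where they raise the Notch ligand Dll1 and commit the cell to become a neuron, while Notch signalling holds the neighbours back. The cells that leave the progenitor state then build a neuronal cytoskeleton and change their RNA processing. Tubb3 is a neuronal beta-tubulin, Stmn2 and Stmn3 are stathmins that bind tubulin, Ina is the neurofilament protein alpha-internexin, Dcx (doublecortin) binds the microtubules of migrating neurons and Crmp1 relays semaphorin guidance signals to the cytoskeleton. Elavl3 and Elavl4 are neuronal RNA-binding proteins of the Hu family.

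Neurogenins bind E-boxes, and 2 E-boxes were searched on both strands, CAGATG and the palindrome CAGCTG, in the RefSeq promoter windows, 250 bases before to 50 after a start site on GRCm38.p6. Windows were found for 9 of the 10 genes, and CAGATG was present for 2 genes and CAGCTG for 3. Of all 32851 promoter windows, 17.2% and 16.3% hold them; a gene with several windows has more chances of a match, so these shares per window are no yardstick for counts of genes. The 4 windows below, 1 for each gene with a match, are shown because they hold it, given in capitals; no match was found in the windows of Neurog1, Neurog2, Tubb3, Crmp1 and Dcx. Stmn3 lies on the minus strand at chr2:181314451-181314750 with CAGATG 75 bases before the start, and Elavl3 on the minus strand at chr9:22051974-22052273 with CAGCTG 43 bases before it. Ina lies on the plus strand at chr19:47014431-47014730 with CAGCTG 135 bases before the start. Elavl4, on the minus strand, has 4 windows, and 3 of them hold a match. The window shown, chr4:110287478-110287777, holds CAGCTG 46 bases before its start and, with no overlap, CAGATG 39 bases before it, and was chosen for that. The window at chr4:110287462-110287761 overlaps it and holds the same pair, 62 and 55 bases before its own start, and the 1 at chr4:110286785-110287084 holds CAGATG 101 bases before its start. A 3′ assay does not say which start site was used, and a match is only a description of these letters.
Stmn3: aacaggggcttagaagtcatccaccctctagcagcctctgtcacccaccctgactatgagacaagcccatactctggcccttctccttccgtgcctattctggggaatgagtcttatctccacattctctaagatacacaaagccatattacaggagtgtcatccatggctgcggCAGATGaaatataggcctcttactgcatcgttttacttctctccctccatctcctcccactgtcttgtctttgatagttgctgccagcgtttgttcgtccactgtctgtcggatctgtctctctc
Elavl3: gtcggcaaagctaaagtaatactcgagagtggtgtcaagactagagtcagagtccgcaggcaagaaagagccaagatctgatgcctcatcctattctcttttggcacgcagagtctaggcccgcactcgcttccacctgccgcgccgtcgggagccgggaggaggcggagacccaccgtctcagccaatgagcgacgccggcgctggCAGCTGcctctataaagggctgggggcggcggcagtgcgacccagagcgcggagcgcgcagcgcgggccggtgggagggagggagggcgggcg
Ina: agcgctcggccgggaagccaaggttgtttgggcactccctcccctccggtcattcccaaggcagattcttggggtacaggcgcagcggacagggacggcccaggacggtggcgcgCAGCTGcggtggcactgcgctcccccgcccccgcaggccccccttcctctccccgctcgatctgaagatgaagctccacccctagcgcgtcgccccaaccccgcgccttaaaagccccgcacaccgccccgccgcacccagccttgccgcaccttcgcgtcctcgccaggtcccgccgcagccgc
Elavl4: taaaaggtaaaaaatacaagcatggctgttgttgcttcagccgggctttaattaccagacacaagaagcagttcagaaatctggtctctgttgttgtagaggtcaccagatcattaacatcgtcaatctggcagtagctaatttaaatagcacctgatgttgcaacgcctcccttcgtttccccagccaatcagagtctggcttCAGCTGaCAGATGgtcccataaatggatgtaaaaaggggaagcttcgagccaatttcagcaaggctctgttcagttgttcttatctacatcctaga

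On GRCm38 the genes lie apart, on 9 chromosomes. Neurog1 spans chr13:56250478-56252163 and Neurog2 chr3:127633135-127635631, on the minus and plus strands, and Dcx chrX:143855842-143933311 on the minus strand. Tubb3 spans chr8:123411424-123422015, Stmn2 chr3:8509360-8561606, Ina chr19:47014698-47025327 and Crmp1 chr5:37241940-37292133, all on the plus strand. Stmn3 (chr2:181306459-181314500), Elavl3 (chr9:22015005-22052023) and Elavl4 (chr4:110203722-110351909) are on the minus strand. In the annotation Ina overlaps Nt5c2 and Crmp1 overlaps Evc, both on the opposite strand, and only counts, not reads, were examined here. Gm20388 and Gm49318, which overlap Tubb3 and Elavl3 on the same strand, have no row in the count matrix.

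The libraries were deep. Sums of unique molecular identifier counts (UMIs, each a counted RNA molecule) over the cells of a gastruloid ran from 1293296 to 57333371, from 60 to 1397 cells, and the lanes' median UMIs per cell from 8287 to 38443, lowest in MULTI-seq 1. The median mitochondrial share of a lane's cells, a sign of RNA quality, was 5.20% to 5.48% in MULTI-seq 1 and 2 and 1.94% to 2.26% in MULTI-seq 3. Levels are UMIs of a gene scaled to a total of 1000000 (CPM) in a gastruloid or of a pool of cells; a 3′ assay counts ends, so they carry no length bias. Of 76935 barcode sequences, 732 occurred in more than 1 lane, and no pair of lanes shared more than 15. The gastruloids of a day differed widely in make-up: cells with a neural name (Early, Caudal and Late Neurectoderm, Early and Late Spinal Cord, Neurons) made up 0.0885% of the lowest and 73.7% of the highest gastruloid at day 4 of MULTI-seq 3, 2.69% and 95.7% at day 4.5, and 5.67% and 81.0% at the last day. In sums over a gastruloid, fewer cells of a type and less RNA per cell cannot be told apart.

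All 10 genes had their highest level in the cells named Neurons, a description only, since the genes were chosen with their levels over these names known. Those cells were rare, 70 of 72176 in the MULTI-seq lanes (0.097%), and the 6 neuron markers checked that are not among the 10 genes, Map2, Mapt, Nefl, Nefm, Rbfox3 and Gap43, were each higher there than in the other cells when all 70 were pooled. Within the 7 Neurons of MULTI-seq 1 the check is undecided: Map2 measured 260 CPM against 2.18 CPM in the other cells of that pool, but Mapt and Rbfox3 had 0 UMIs, where 3 UMIs would be 65.1 CPM, and Nefl measured 21.7 CPM (1 UMI) against 27.3 CPM. In MULTI-seq 2, Mapt had 0 UMIs in the Neurons of pool B, and Nefl measured 17.9 CPM (2 UMIs) in those of pool C against 23.4 CPM in the others. The genes differed in how far they were found outside Neurons, and 3 patterns can be told apart.

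Dcx, Neurog1, Tubb3, Elavl3 and Elavl4 had the highest folds of Neurons over the next type, at 275, 94.5, 86.5, 39.0 and 31.4. Dcx measured 289 CPM in Neurons (exact 95% Poisson interval 259 to 321) and 1.05 CPM in Early Neurectoderm, its second type, so that the 70 cells held 46.2% of its 742 UMIs. Tubb3 measured 2406 CPM in Neurons and 27.8 CPM in Caudal Neurectoderm, with 14.6% of its UMIs in Neurons. Elavl3, at 369 CPM, and Elavl4, at 658 CPM, had their second levels in Late Neurectoderm (9.48 CPM) and Notochord (21.0 CPM), which is a mesodermal rod and no neural tissue, and Neurons held 10.2% and 5.85% of their UMIs. Neurog1 was much lower throughout, with 45.4 CPM in Neurons (34.1 to 59.3), and 27.4% of its 197 UMIs came from Neurons. Late Spinal Cord held more of them, 62 against 54 in Neurons, and Early Spinal Cord held 18. Its second type, Late Neurectoderm, rests on 20 UMIs, at 0.481 CPM (0.294 to 0.743). That interval overlaps the one of Late Spinal Cord, at 0.396 CPM (0.304 to 0.508), so which type is second is undecided.

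Stmn2, Stmn3, Ina and Crmp1 were broad. Stmn2 measured 2460 CPM in Neurons, yet only 1.09% of its 269429 UMIs came from them, and 35.1% from all neural names together. Its second level was 377 CPM in Early Neurectoderm, where 77.8% of cells held a UMI after each cell was thinned to 5000 UMIs (exact 95% binomial interval 76.0% to 79.5%; 98.4% unthinned). Ina measured 958 CPM in Neurons, and its next highest types were not neural: Early Nascent Mesoderm at 80.9 CPM and Anterior Primitive Streak at 74.6 CPM. Crmp1 measured 492 CPM in Neurons, 49.6 CPM in Caudal Epiblast and 47.8 CPM in Endothelium. Stmn3 measured 614 CPM in Neurons and 47.4 CPM in Caudal Neurectoderm.

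Most Neurog2 UMIs came from spinal cord cells outside Neurons. It measured 16.8 CPM in Neurons (10.3 to 26.0) but only 1.60% of its 1251 UMIs came from them, while 94.0% came from neural names together. Late Spinal Cord was its second type, at 4.74 CPM (4.41 to 5.09), followed by Early Spinal Cord at 1.48 CPM and Late Neurectoderm at 1.18 CPM. Intervals here and below cover counting error only.

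Free RNA in droplets can give UMIs to cells that do not express a gene, so shares of cells were set beside types that should lack neuronal genes. In Endothelium, with a median of 22837 UMIs per cell against 15525 in Neurons, a thinned UMI was found for Tubb3 in 1.01% of cells, for Stmn3 in 1.01% and for Elavl3 in 0.338%, against 92.8%, 55.1% and 79.7% of Neurons. For Stmn2 it was 6.42% in Endothelium but 48.9% in Mature Endoderm, and for Crmp1 17.9% in Endothelium and 1.94% in Mature Endoderm. These shares differed between the non-neural types by more than their intervals, which cover the counting of cells only. The types were pooled over days and lanes, and the part of free RNA in the shares was not tested. A Neuron held UMIs of a median of 7 of the 10 genes after thinning, and every other type had a median of 0 or 1. In 47 of 69 thinned Neurons (68.1%) at least 5 of the genes were found, against 33 cells in all other types, 11 of them Late Spinal Cord.

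**Figure D1:**
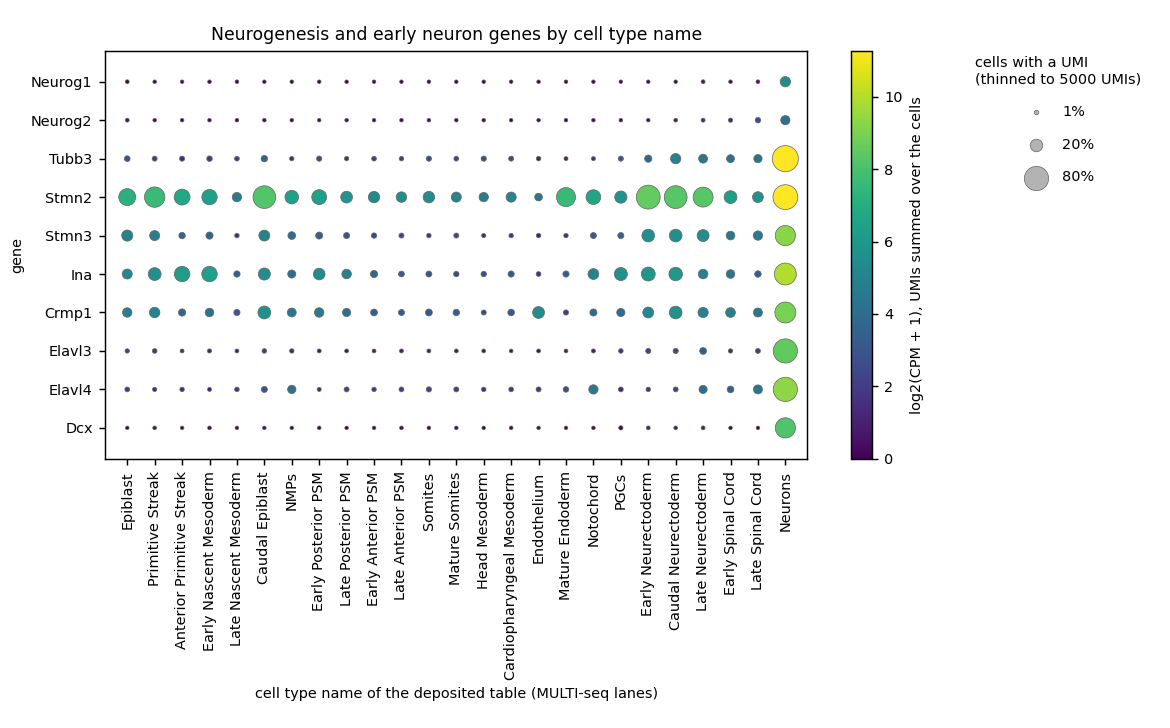
Each circle is a gene (rows) in a deposited cell type name (columns); its colour is log2(CPM + 1) over the summed cells and its area the share of cells with a UMI after thinning to 5000 UMIs. All 10 genes peak in Neurons, while Stmn2, Stmn3, Ina and Crmp1 are also found in epiblast, streak and neurectoderm types.

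Over the 24 other types the genes varied together only in part. Of 45 pairs, 42 had a positive Pearson correlation of log2(CPM + 1), from -0.13 for Ina with Elavl4 to 0.86 for Stmn3 with Elavl3, with a median of 0.47; the types share lanes and gastruloids, and this is a description. The mean standardised level of the 10 genes was highest in Late Neurectoderm, Caudal Neurectoderm, Late Spinal Cord and Early Neurectoderm. The genes outside the set with the profile most like that mean, among 7730 candidates of at least 20 CPM in a type, were Hes3 (r = 0.92), Gpd2, Insl6, Sox3, Gm11627, Chchd6, Rfx4, Sox1, Mapk8ip1 and Wnt8a (r = 0.86). Hes3 is a Hes repressor, and Sox1 and Sox3 are SoxB1 factors of neural progenitors.

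Followed over the days of MULTI-seq 3, the summed level of the 10 genes was highest early. Its median over gastruloids was 314 CPM at day 3, 434 CPM at day 3.5, 144 CPM at day 4, 114 CPM at day 4.5 and 62.1 CPM at day 5. The label of neurogenesis was borne out for only some of the genes: Stmn2, Ina and Crmp1, which gave most of the UMIs, were found at days 3 and 3.5 in epiblast, streak and mesoderm names. The 38 other genes of neuronal structure and function, a list fixed with the design and with earlier results known, had a median sum of 952 CPM at day 3 and 2054 CPM at day 5. That sum includes abundant genes found well outside Neurons, such as Stmn1 and Tuba1a, at 606 and 394 CPM in the other cells. It is therefore no measure of neurons. For day 4 against day 3.5 the single genes of the list went in both directions, as given below.

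Stmn2 measured 145, 193 and 309 CPM (lowest, median and highest of 24 gastruloids) at day 3 and 119, 270 and 416 CPM at day 3.5. It then measured 67.4, 95.9 and 291 CPM at day 4, 42.2, 64.8 and 176 CPM at day 4.5 and 15.8, 26.2 and 52.0 CPM at day 5. The lowest gastruloid of day 3 was above the highest of day 5. Ina showed the same order with less spread, with medians of 55.9, 55.9, 19.5, 14.8 and 5.26 CPM from day 3 to day 5. Crmp1 peaked at day 3.5, with medians of 27.2, 44.8, 12.8, 14.3 and 9.10 CPM, and Stmn3 did too, at 27.2, 35.5, 6.52, 10.1 and 6.03 CPM.

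Tubb3 and Elavl3 had no single trend, and their gastruloids overlapped between all days. Tubb3 measured a median of 5.14 CPM at day 3, 15.6 CPM at day 3.5, 4.05 CPM at day 4, 8.81 CPM at day 4.5 and 4.49 CPM at day 5. At day 4.5 its lowest gastruloid, with 14.3% neural cells, stood at 2.54 CPM, and its highest, with 86.1% neural cells, at 37.2 CPM. Elavl3 had medians of 2.54, 2.45, 0.837, 1.202 and 1.01 CPM.

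Elavl4 went the other way. Its medians were 1.80 CPM at day 3, 3.37 CPM at day 3.5, 4.36 CPM at day 4, 7.23 CPM at day 4.5 and 7.09 CPM at day 5, and it was highest in the separate day 5 gastruloids of MULTI-seq 1, at 5.56, 12.3 and 36.7 CPM. Neurog2 stayed low, with medians of 0 CPM at day 3, 0.216 CPM at day 3.5, 0.047 CPM at day 4, 0.242 CPM at day 4.5 and 0.393 CPM at day 5 and a highest gastruloid of 3.99 CPM. Neurog1 had no UMI in 15 of the 24 gastruloids of day 3, in 12, 9, 12 and 8 of the 16 each of days 3.5, 4, 4.5 and 5, and in 11 of the 24 of MULTI-seq 1. Dcx had none in 1 of the 24 gastruloids of day 3, in 3, 4, 10 and 7 of the 16 each of days 3.5, 4, 4.5 and 5, and in 18 of the 24 of MULTI-seq 1, the shallowest experiment per cell; such counts also move with depth. Dcx reached 8.76 CPM in a day 3.5 gastruloid with 69.4% neural cells, while its median there was 0.302 CPM.

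**Figure D2:**
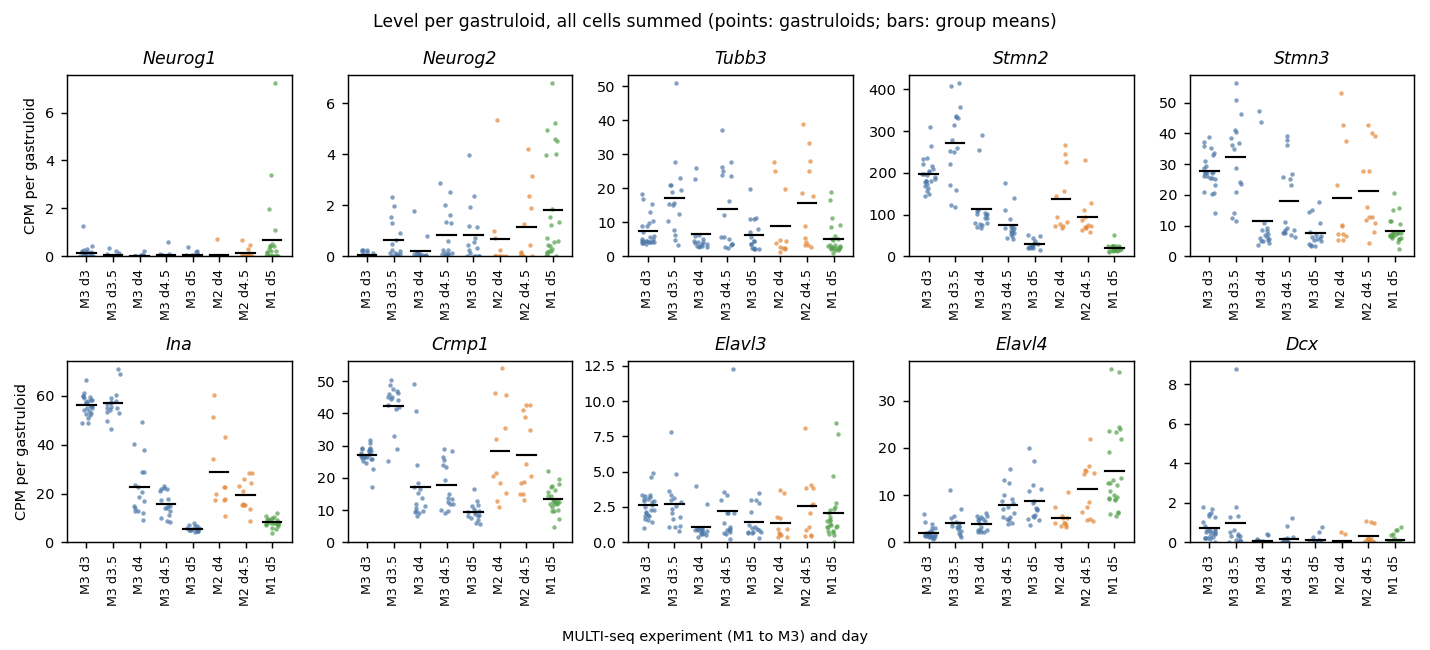
CPM (y axes) of each of the 10 genes in every gastruloid (points), by experiment (M1 to M3 for MULTI-seq 1 to 3) and day; bars are group means. Stmn2 and Ina lie lower after day 3.5, Elavl4 is higher at later days, and single gastruloids stand far above the rest for Neurog1, Elavl3 and Dcx.

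Between days 4.5 and 5 of MULTI-seq 3, the step for which the genes were chosen above all, 8 of the 10 had a lower mean at day 5. With a lane left out it was 7 to 9. Neurog2 and Dcx were among the 8, yet their medians were higher at day 5 (0.393 against 0.242 CPM and 0.031 against 0 CPM). Of 12298 genes fitted for that step, 0.203% were at least 2-fold lower and 0.472% at least 2-fold higher. Tubb3, Stmn2, Stmn3 and Ina were among the 25 lower ones, as the choice would have it. Ina measured 8.33, 14.8 and 23.3 CPM at day 4.5 and 4.15, 5.26 and 7.997 CPM at day 5, with no overlap, a log2 fold change of -1.53 ± 0.13 (SE, 16 gastruloids against 16). Stmn2 was lower by a log2 fold change of -1.38 ± 0.19, and each of the 16 gastruloids of day 5 was below the median of day 4.5. Just outside the 2-fold line stood Crmp1 at -0.92 ± 0.18, and just inside it Tubb3 at -1.10 ± 0.40. Elavl4 stood at 0.15 ± 0.23, and Neurog1, Neurog2 and Dcx were too low to be fitted. Lower means, groups with no overlap and gastruloids all below a median, here and below, are given without the share of all genes. Such counts therefore have no yardstick.

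The same step was then taken within the spinal cord names, summing only cells of that name. For Stmn2 it was larger in both names than over whole gastruloids. For Stmn3, at -1.23 over whole gastruloids, it was larger in Early and smaller in Late Spinal Cord. These differences in size were not tested. In Early Spinal Cord cells (14 gastruloids of day 4.5 and 15 of day 5 with at least 20 such cells), Stmn2 measured 23.1, 62.7 and 114 CPM at day 4.5 and 6.42, 15.1 and 27.0 CPM at day 5, a log2 fold change of -1.98 ± 0.18. Tubb3, Stmn3, Ina and Crmp1 were lower by log2 fold changes of -1.21, -1.44, -1.51 and -1.03, and for each of the 5 genes all 15 gastruloids of day 5 were below the median of day 4.5. Against them, 0.142% of 9150 genes were at least 2-fold lower, and 0.142% as much higher. Elavl4 was higher, at 2.44, 6.02 and 9.10 CPM and then 2.51, 9.67 and 13.3 CPM, a log2 fold change of 0.62 ± 0.13.

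In Late Spinal Cord cells (7 gastruloids against 8) the picture was alike. Tubb3 measured 22.1, 30.7 and 38.5 CPM at day 4.5 and 7.78, 14.3 and 19.8 CPM at day 5, with no overlap. Ina and Crmp1 did not overlap either, at log2 fold changes of -1.70 ± 0.16 and -0.998 ± 0.113, and Stmn2 and Stmn3 differed by -2.04 ± 0.25 and -1.02 ± 0.16. Elavl3 (-0.25 ± 0.28), Elavl4 (0.34 ± 0.19) and the proneural factor Neurog2 (0.33 ± 0.34) stood nearer to 0. In that fit 0.232% of 9921 genes were at least 2-fold lower and 0.333% higher. The share of all genes with no overlap between the days is not given, so non-overlap has no yardstick here. Stmn2 was also lower at later days in other names: in NMPs, the neuromesodermal progenitors, the median of Stmn2 was 186 CPM at day 4, 87.9 CPM at day 4.5 and 17.5 CPM at day 5, and in Mature Somites 64.8, 36.4 and 23.4 CPM.

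**Figure D3:**
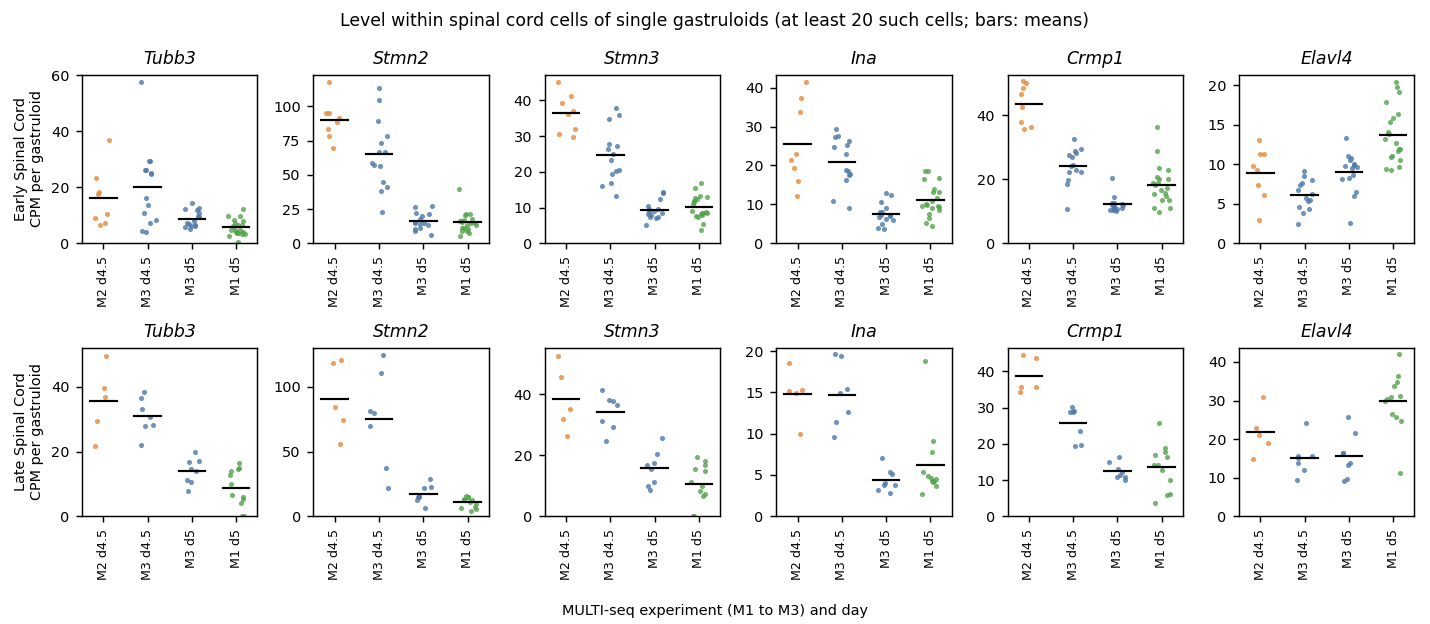
CPM (y axes) of 6 genes within Early Spinal Cord (upper row) and Late Spinal Cord cells (lower row) of single gastruloids with at least 20 such cells (points; bars are means) at day 4.5 of MULTI-seq 2 (M2) and 3 (M3) and day 5 of MULTI-seq 3 and 1 (M1). Tubb3, Stmn2, Stmn3, Ina and Crmp1 sit lower at day 5 in both names, and Elavl4 does not.

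The earlier step, day 4 against day 3.5 of MULTI-seq 3, is not the one put first in the choice of the genes, and it was tested. The days as a whole were part of that choice, so these calls may owe something to it. Of the 7 genes fitted, 6 fell and none rose, where 60.4% of the 13262 genes tested were called, 29.2% lower and 31.1% higher (edgeR's quasi-likelihood test, Benjamini-Hochberg adjustment over all genes, called below 0.05). The 7 had a median log2 fold change of -1.34, against 0.01 over all genes; Neurog1, Neurog2 and Dcx did not pass the filter on low counts. Fold changes are given after TMM scaling and CPM without it. Ina measured 46.5, 55.9 and 71.1 CPM at day 3.5 and 9.24, 19.5 and 49.5 CPM at day 4, and fell by 1.36 ± 0.18 on the log2 scale (adjusted p = 1.53e-07). All 16 gastruloids of day 4 were below the median of day 3.5. Stmn2 fell by 1.28 ± 0.20 (adjusted p = 3.45e-06, 15 of 16 gastruloids below) and Crmp1 by 1.34 ± 0.21 (adjusted p = 2.63e-06, 15 of 16).

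The 3 other genes that fell were lower in 14 of 16 gastruloids each. Stmn3 measured 11.4, 35.5 and 56.5 CPM and then 3.66, 6.52 and 47.4 CPM, and fell by 1.54 ± 0.34 (adjusted p = 0.00028). Tubb3 fell by 1.41 ± 0.36 (adjusted p = 0.00108) and Elavl3 by 1.34 ± 0.30 (adjusted p = 0.000284), both by edgeR. Elavl4, the paralogue of Elavl3, measured 1.19, 3.37 and 11.03 CPM and then 2.08, 4.36 and 6.30 CPM, a log2 fold change of -0.00 ± 0.22 (adjusted p = 0.991). The neural share moved with this step: its median was 43.9% before it and 1.18% after it, and at day 4 the highest values of Tubb3, Stmn2, Stmn3, Ina and Crmp1 were all in gastruloids with 69.2% or 73.7% neural cells; its part in the result was not tested in this fit. The summed pluripotency and germ cell markers moved too, from a median of 303 CPM to 72.8 CPM, of which 4 of 7 fitted fell, and 8 of 9 endoderm markers and all 5 fitted somite and muscle markers rose; their part was not tested either.

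Within single cell type names the step was smaller for most of the genes, and it differed between names. In Early Posterior PSM cells, the unsegmented paraxial mesoderm (10 gastruloids of day 3.5 and 15 of day 4), all 5 genes fitted fell, where 36.9% of 10049 genes were called, 18.6% lower and 18.3% higher. Crmp1 measured 20.4, 32.3 and 43.8 CPM and then 7.39, 15.0 and 25.8 CPM and fell by 1.12 ± 0.12 on the log2 scale (edgeR, adjusted p = 1.23e-08), with all 15 gastruloids below the earlier median. Ina fell by 1.01 ± 0.11 (adjusted p = 2.20e-08), Stmn2 by 0.85 ± 0.12 (adjusted p = 8.60e-07), Tubb3 by 0.94 ± 0.23 (adjusted p = 0.00162) and Stmn3 by 0.57 ± 0.16 (adjusted p = 0.00442).

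In Caudal Epiblast cells (13 gastruloids against 13), 3 of the 6 genes fitted fell and 1 rose, where 18.8% of 8851 genes were called, 9.17% lower and 9.61% higher. Tubb3 measured 1.021, 12.4 and 23.8 CPM and then 0, 3.10 and 15.9 CPM and fell by 1.496 ± 0.354 (edgeR, adjusted p = 0.00288). Ina fell by 0.56 ± 0.10 (adjusted p = 7.83e-05) and Stmn2 by 0.34 ± 0.08 (adjusted p = 0.00343), each with all 13 gastruloids below the earlier median. Elavl4 rose by 1.01 ± 0.21 (adjusted p = 0.000697), from 1.17, 4.87 and 6.91 CPM to 4.48, 7.45 and 19.8 CPM, with 12 of 13 gastruloids above. Stmn3 (-0.05 ± 0.09) and Crmp1 (-0.11 ± 0.11) did not pass. None of the genes passed when gastruloids needed 50 cells of the name in place of 20. Without lane A of the pool, 2 of 4 genes fitted passed, without lane B, C or D 3 of 5, and Elavl4 could be fitted in none of these. Both within-name comparisons were added after the data were seen and share their gastruloids with the whole-gastruloid one, and the difference between names was not tested.

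At the next step, day 4.5 against day 4 in MULTI-seq 2, 1 of 6 genes fitted passed, where 7.36% of 11064 genes were called, 3.03% higher and 4.33% lower. Elavl4 measured 3.15, 4.19 and 10.7 CPM in 11 gastruloids of day 4 and 4.56, 11.6 and 21.9 CPM in 12 of day 4.5, and rose by 1.05 ± 0.29 on the log2 scale (edgeR, adjusted p = 0.0241), with all 12 above the earlier median. The call was lost without lane 3 of the pool (log2 fold change 0.80, edgeR adjusted p = 0.215) and with a minimum of 100 cells (adjusted p = 0.118), where Tubb3 passed (2.06, adjusted p = 0.0472). Tubb3 measured 1.18, 4.03 and 27.6 CPM and then 2.75, 13.3 and 39.0 CPM, but its log2 fold change of 0.94 ± 0.58 did not pass (adjusted p = 0.356). The neural share, with medians of 2.50% and 21.7%, moved with both, and Elavl4 rose where endoderm and pluripotency markers fell: of 8 fitted endoderm markers Epcam (-1.35 ± 0.36), Foxa2 (-1.87 ± 0.48) and Sox17 (-1.97 ± 0.59) fell and none rose, and of 3 pluripotency markers Pou5f1 (-1.92 ± 0.25) fell. The part of these in the result was not tested.

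Gastruloids of the other experiments give the step from day 4.5 to day 5 as well, but only between experiments. Day 5 of MULTI-seq 1 (24 gastruloids) was set against day 4.5 of MULTI-seq 2 (12) after the data were seen, and since the choice of the genes may rest on this step too, the values are a description with no test. Day, experiment and depth cannot be told apart in it. Of the 10 genes, 7 had a lower mean at day 5, and 6 to 7 with a lane left out, with no share of all genes to set beside it. Of 11462 genes in the fit, 1.26% were at least 2-fold lower and 0.986% at least 2-fold higher, and Tubb3, Stmn2, Stmn3, Ina and Crmp1 were among the lower ones. Stmn2 measured 57.4, 73.9 and 231 CPM at day 4.5 and 10.97, 18.1 and 52.2 CPM at day 5, with no overlap, a log2 fold change of -2.43 ± 0.17. Ina stood at -1.40 ± 0.13 and Crmp1 at -1.15 ± 0.17, each with all 24 gastruloids of day 5 below the earlier median. Tubb3 stood at -1.77 ± 0.38 (22 of 24 below) and Stmn3 at -1.498 ± 0.251 (21 of 24 below).

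The RNA-binding and proneural genes stood nearer to 0 in these groups. Elavl4 measured 4.56, 11.6 and 21.9 CPM at day 4.5 and 5.56, 12.3 and 36.7 CPM at day 5, a log2 fold change of 0.30 ± 0.27. Elavl3 gave -0.40 ± 0.40 and Neurog2 0.70 ± 0.63, while Neurog1 and Dcx were too low to be fitted. Median UMIs per cell were lower in MULTI-seq 1, and the median neural share was 21.7% at day 4.5 and 34.9% at day 5.

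**Figure D4:**
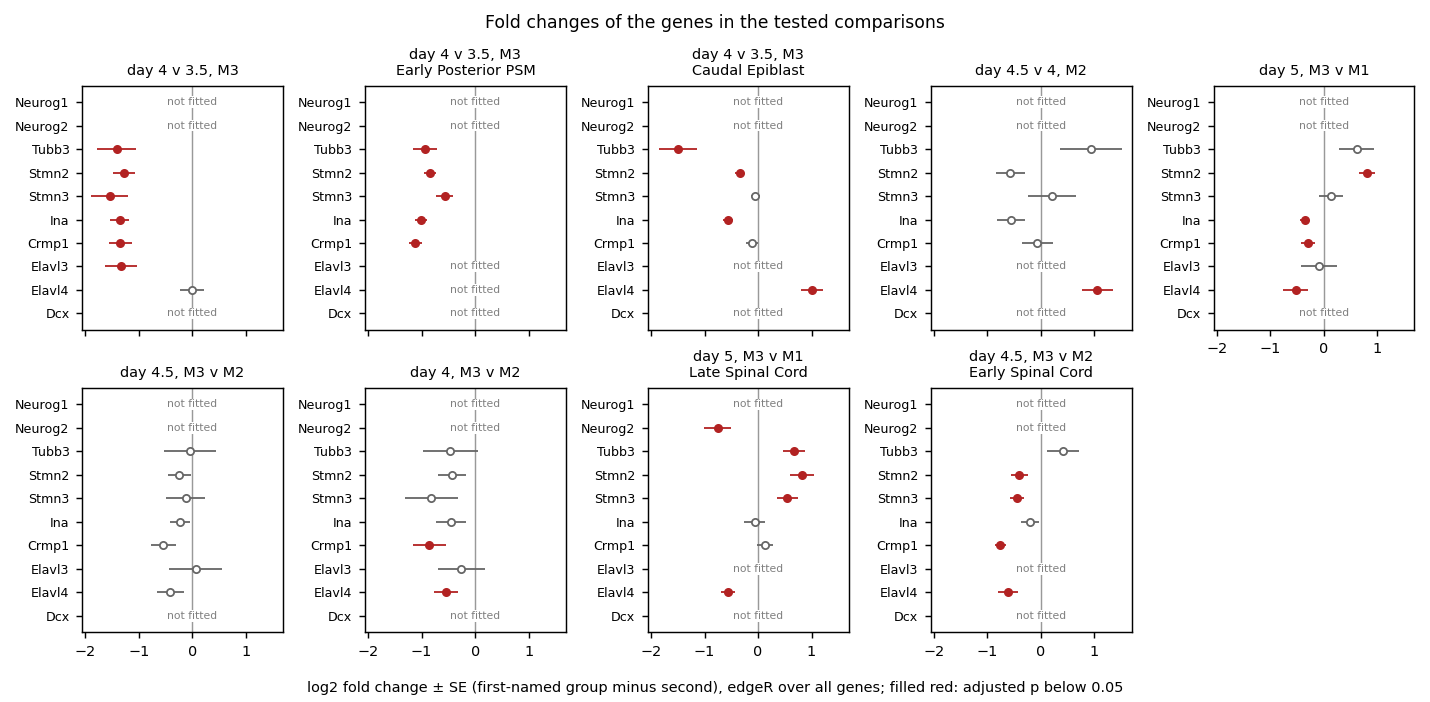
Log2 fold change ± SE (x axes, first-named group minus second) of each gene in the 9 tested comparisons, with genes called at an adjusted p below 0.05 in filled red and genes too low for the fit written as not fitted; M1 to M3 are MULTI-seq 1 to 3. Stmn2, Stmn3, Ina, Crmp1 and Tubb3 lie left of 0 for day 4 against 3.5, where Elavl4 lies at 0.

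The same day in different experiments showed how far levels vary with the experiment, in which culture, lane and library cannot be told apart; these comparisons share groups with those above. The lower mitochondrial share of MULTI-seq 3 goes with each of them, and its depth tended to be greater too. Lane medians of UMIs per cell were 26466 to 38443 in its pools of days 3.5 to 5. They were 25275 and 27116 in pool B of MULTI-seq 2 and 8287 to 15709 in MULTI-seq 1. At day 4, gastruloid sums ran from 14647539 to 57333371 UMIs in MULTI-seq 3 and from 1766803 to 7774717 in MULTI-seq 2. The part of depth and mitochondrial share was not tested. At day 5, MULTI-seq 3 against MULTI-seq 1 (16 against 24), 4 of 7 genes fitted passed, where 63.7% of 11718 genes were called, 33.7% lower and the other 3518 genes higher. Stmn2 was higher in MULTI-seq 3, at 15.8, 26.2 and 52.0 CPM against 10.97, 18.1 and 52.2 CPM, by 0.81 ± 0.15 on the log2 scale (edgeR, adjusted p = 5.27e-06). Ina was lower, at -0.36 ± 0.09 (adjusted p = 0.000581), and Crmp1 (-0.30 ± 0.13, adjusted p = 0.0410) and Elavl4 (-0.53 ± 0.23, adjusted p = 0.0483) were lower close to the threshold. The calls of Crmp1 and Elavl4 were lost without lane 2 of MULTI-seq 1, without lane A or C of the MULTI-seq 3 pool, or with no filter on low counts. With library size as the only scaling, the median of all genes moved to -0.25, and 18.1% of the called genes were higher in place of 47.1%.

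At day 4.5, MULTI-seq 3 against MULTI-seq 2 (16 against 12), none of 7 genes passed in edgeR, where 42.4% of 11695 genes were called, 21.1% higher and 21.3% lower; the lowest adjusted p was 0.0564, for Crmp1 (-0.54 ± 0.23), and 1 gene, Crmp1, passed in DESeq2. At day 4 (16 against 11), Crmp1 (-0.86 ± 0.31, edgeR adjusted p = 0.0248) and Elavl4 (-0.54 ± 0.22, adjusted p = 0.0485) were lower in MULTI-seq 3, where 46.1% of 13713 genes were called, 23.1% lower and 23.0% higher. Neither call held when gastruloids needed 100 cells, when no filter on low counts was set, or with library size as the only scaling. That scaling also moved the balance of all genes towards higher calls, with the shares given in the closing section. Crmp1 measured 10.8, 21.5 and 53.9 CPM in MULTI-seq 2 and 8.06, 12.8 and 49.2 CPM in MULTI-seq 3, so that the groups overlapped over most of their range.

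The same comparisons were made within the spinal cord names. In Late Spinal Cord cells of day 5 (8 gastruloids of MULTI-seq 3 and 12 of MULTI-seq 1), 5 of 7 genes passed, where 47.5% of 9648 genes were called, 23.5% higher and 24.0% lower. Neurog2 measured 0, 6.13 and 21.1 CPM in MULTI-seq 1 and 0.914, 2.84 and 6.20 CPM in MULTI-seq 3, lower there by a log2 fold change of -0.76 ± 0.26 (edgeR, adjusted p = 0.0168). Elavl4 was also lower in MULTI-seq 3, at -0.56 ± 0.14 (adjusted p = 0.00095), with all 8 gastruloids below the median of MULTI-seq 1. Tubb3 (0.67 ± 0.21, adjusted p = 0.00844), Stmn2 (0.82 ± 0.22, adjusted p = 0.00218) and Stmn3 (0.54 ± 0.19, adjusted p = 0.0214) were higher. Library size as the only scaling moved the median of all genes to -0.29 and left 3 of the 5 calls, without those of Tubb3 and Stmn3. Without lane 3 of MULTI-seq 1, 3 of 5 genes fitted passed, with Stmn3 at an edgeR adjusted p of 0.0792 and Neurog2 not fitted, and without its lane 1 the call of Neurog2 was lost (adjusted p = 0.0546).

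In Early Spinal Cord cells of day 4.5 (14 gastruloids of MULTI-seq 3 and 8 of MULTI-seq 2), 4 of 6 genes were lower in MULTI-seq 3 and none higher, where 37.7% of 8811 genes were called, 18.7% lower and 19.0% higher. Crmp1 did not overlap, at 10.7, 24.2 and 32.6 CPM in MULTI-seq 3 and 35.8, 44.6 and 50.7 CPM in MULTI-seq 2, and was lower by a log2 fold change of -0.76 ± 0.11 (edgeR, adjusted p = 5.36e-07). Elavl4 (-0.61 ± 0.19, adjusted p = 0.00985), Stmn3 (-0.44 ± 0.13, adjusted p = 0.00726) and Stmn2 (-0.40 ± 0.16, adjusted p = 0.0462) were lower as well. Crmp1 and Elavl4 kept their calls, and Stmn2 and Stmn3 lost theirs, when 50 cells of the name were required, and both lost them without lane 3 of the MULTI-seq 2 pool.

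Neurog2 in the spinal cord was found in few cells, and among pooled cells the share was higher in Late than in Early Spinal Cord. Over gastruloids of day 5 in MULTI-seq 3 its level overlapped between the names. It measured 0.914, 2.84 and 6.20 CPM in Late (8 gastruloids) and 0, 0.764 and 3.99 CPM in Early Spinal Cord (15). After thinning, 45 of 2098 Late Spinal Cord cells of day 5 in MULTI-seq 3 held a UMI (2.14%, exact 95% interval 1.57% to 2.86%; 7.15% unthinned), against 13 of 1870 Early Spinal Cord cells (0.695%, 0.371% to 1.19%). At day 4.5 of MULTI-seq 3 the Late Spinal Cord share was 1.15% (0.465% to 2.36%), and at day 5 of MULTI-seq 1 3.08% (2.29% to 4.04%). These intervals treat pooled cells as independent and leave out the spread between gastruloids, so they cannot compare the days. Over Late Spinal Cord cells of 7 gastruloids of day 4.5 and 8 of day 5 in MULTI-seq 3, the log2 fold change was 0.33 ± 0.34, with no test. Cells of Mature Somites, which should lack the gene, held it in 0.0111%.

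The cells with a Neurog2 UMI carried other genes of the switch to neurons. In Late Spinal Cord of day 5 in MULTI-seq 3, 150 cells held one and 1948 did not, at median UMIs per cell of 33212 and 31251. Gadd45g, a growth arrest gene, measured 31.6 CPM in them (27.0 to 36.6) and 1.97 CPM in the others, and Dll1, the Notch ligand, 103 CPM against 22.3 CPM, each higher in 6 of 6 gastruloids with at least 5 such cells. Neurod4 measured 8.44 against 0.66 CPM, Hes6 43.8 against 24.5 CPM and Btg2 54.1 against 22.8 CPM. Among the 10 genes, Neurog1 measured 3.85 CPM (21 UMIs) against 0.03 CPM (2 UMIs), Elavl3 8.99 against 2.67 CPM (5 of 6 gastruloids), Elavl4 28.4 against 18.9 CPM (5 of 6) and Tubb3 19.997 against 13.4 CPM (4 of 6).

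The cytoskeletal genes that were broad across types did not go with Neurog2. Stmn2 measured 19.4 CPM in the cells with a UMI (15.9 to 23.5) and 19.0 CPM in those without (17.9 to 20.1), Stmn3 17.4 and 17.1 CPM, Ina 4.77 and 4.38 CPM and Crmp1 13.6 and 12.8 CPM. Their intervals overlapped in each case. In MULTI-seq 1 at day 5 (91 cells with and 1567 without a UMI) the order was alike: Gadd45g 65.1 against 3.87 CPM, Dll1 129 against 33.6 CPM, Tubb3 19.7 against 9.68 CPM and Stmn2 10.5 against 12.2 CPM. The cells with a UMI were deeper there, with a median of 14630 UMIs against 11134. These comparisons pool cells of few gastruloids and carry no test over samples.

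The 70 Neurons came from all 3 MULTI-seq experiments and from every day of MULTI-seq 3, and they were few. Among cells with a gastruloid, 7 were of day 3 in 7 gastruloids, 3 of day 3.5, 1 of day 4, 4 of day 4.5 and 12 of day 5 in 5 gastruloids of MULTI-seq 3, while 7 came from MULTI-seq 2 (day 4.5) and 7 from MULTI-seq 1 (day 5). No gastruloid barcode could be read for 9 of the 17 Neurons of the day 3 pool (52.9%, against 40.1% of the other cells of that pool) and for 5 of the 9 of the pool of days 3.5 and 4 (55.6%, against 13.1%). The 70 include 4 cells that the deposited table calls doublets of gastruloid barcodes. Neurons were shallower than other cells, with a median of 15525 against 27328 UMIs.

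Neurons of different pools differed in the proneural genes and in late cytoskeletal genes, and depth and RNA quality moved with the pools. The median mitochondrial share of Neurons was 7.43% in MULTI-seq 1, 6.19% and 6.004% in pools B and C of MULTI-seq 2 and 1.65% to 2.23% in the pools of MULTI-seq 3, and their median UMIs ran from 7005 in MULTI-seq 1 to 23943 in the pool of days 3.5 and 4; the part of these was not tested. Neurog1 measured 412 CPM (248 to 644, 19 UMIs in 4 of 7 cells) in Neurons of MULTI-seq 1, and 11.4 CPM (3.10 to 29.1) in the 17 of day 3 of MULTI-seq 3. Neurog2 had 0 UMIs in the Neurons of day 3 and of days 3.5 and 4, and 8 UMIs in 4 of 17 Neurons of days 4.5 and 5. Ina ran from 86.8 CPM (23.6 to 222) in MULTI-seq 1 to 1826 CPM (1651 to 2015) in the pool of days 3.5 and 4. Its value in MULTI-seq 1 rests on 4 UMIs, all in 1 of the 7 cells. Stmn2 ran from 282 CPM to 4443 CPM between the same pools. Tubb3, at 803 to 3285 CPM, and Elavl3, at 260 to 460 CPM, spread less.

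Other genes of the fixed lists differed between the pools too. Nefl, the light neurofilament, measured 1773 CPM at day 3, 3657 CPM at days 3.5 and 4 and 1972 CPM at days 4.5 and 5 of MULTI-seq 3 (there in 6 of 17 cells), but 21.7 CPM (1 UMI) in MULTI-seq 1 and 68.7 and 17.9 CPM in pools B and C of MULTI-seq 2. Gap43, of growing axons, measured 1111, 1761 and 725 CPM in the 3 pools of MULTI-seq 3 and 43.4 CPM (2 UMIs) in MULTI-seq 1. Pou4f1, a sensory neuron factor, measured 142, 217 and 324 CPM in MULTI-seq 3 and had 0 UMIs in MULTI-seq 1. In the pool of days 4.5 and 5 it was uneven, with 648 to 949 CPM in 5 of the 17 cells and 0 UMIs in 7. All 3 genes were higher in each pool of MULTI-seq 3 than in MULTI-seq 1 and 2. Gadd45g and Dll1 were low in the earlier pools of MULTI-seq 3, at 51.2 and 5.68 CPM at day 3 (18 and 2 UMIs). They measured 556 and 232 CPM at days 4.5 and 5 and 868 and 260 CPM in MULTI-seq 1. Tfap2b, which is also on the neural crest list, measured 2.84 CPM (1 UMI) at day 3, 208 CPM at days 4.5 and 5 and 325 to 742 CPM in Neurons of MULTI-seq 1 and 2. The pool of days 4.5 and 5 thus held genes of both kinds. Experiment, day and pool cannot be told apart here.

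**Figure D5:**
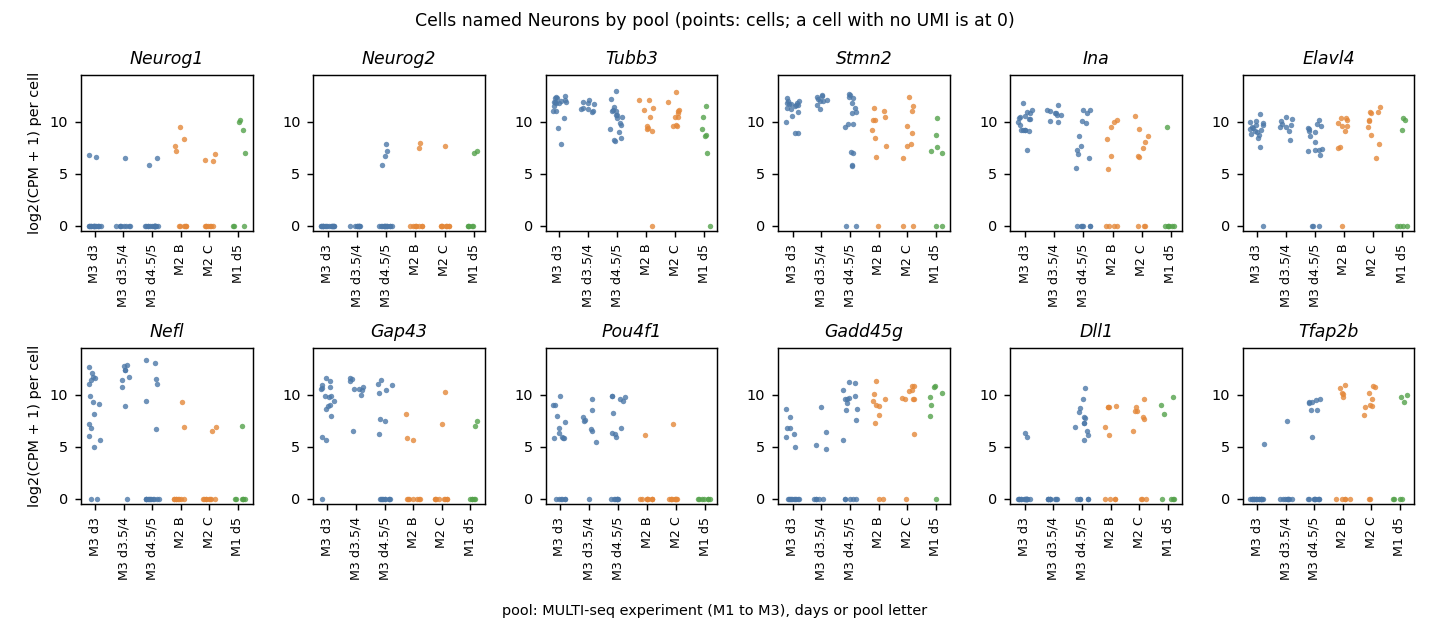
Log2(CPM + 1) (y axes) of 12 genes in each of the 70 Neurons (points; a cell with no UMI is at 0), by pool (M1 to M3 for MULTI-seq 1 to 3, with days or pool letter). Nefl, Gap43 and Pou4f1 are found in most Neurons of days 3 to 4 of MULTI-seq 3 and in 6, 8 and 10 of the 17 of days 4.5 and 5, and Gadd45g, Dll1 and Tfap2b reach lower levels at days 3 to 4 of MULTI-seq 3 than in each of the other pools.

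Counts for the lists of related genes are given beside the shares of all genes, and no difference from the 10 genes or from all genes was tested. At day 4 against day 3.5, where 31.1% of all genes rose and 29.2% fell, 7 of 14 fitted proneural and transition regulators rose and 3 fell, with a median log2 fold change of 0.40: Sox4, at 145 ± 45.4 CPM and 243 ± 40.6 CPM (SD, n = 16 each), rose by 0.71 ± 0.13, while Hes6 fell by 0.85 ± 0.11 and Btg2 by 0.53 ± 0.15. Of 15 Notch ligands and targets, 9 rose and 2 fell, among them Jag1, up by 1.41 ± 0.15, and Hey1, up by 1.68 ± 0.19. Of 34 genes of neuronal structure, 12 rose and 13 fell; Stmn1, the stathmin of dividing cells, rose by 0.39 ± 0.04 and Tuba1a by 0.35 ± 0.06. Of 16 neural progenitor markers, 7 rose and 3 fell, with Pax3 up by 3.75 ± 0.41 and Nes down, at -1.10 ± 0.17. Over this step the median neural share went from 43.9% to 1.18%, and its part in these counts was not tested. The names of the lists do not say in which cells their genes rose or fell. In Early Posterior PSM cells, where 18.3% of all genes rose and 18.6% fell, 12 of 23 genes of neuronal structure rose and 1 fell, among them Map1b, by 1.05 ± 0.10.

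At day 4.5 against day 4 in MULTI-seq 2, where 3.03% of all genes rose and 4.33% fell, 2 of 13 proneural regulators rose (Sox11 by 0.40 ± 0.06 and Tox3 by 0.56 ± 0.15) and none fell, and 3 of 13 neural progenitor markers rose, Hes5 by 1.92 ± 0.37, Pax6 by 2.18 ± 0.43 and Zic1 by 2.07 ± 0.53. Lhx1, from the list of spinal cord neuron subtype factors, changed by -2.73 ± 0.60. Over all MULTI-seq lanes it was lower in Neurons (21.9 CPM) than in the other cells (53.6 CPM), so it is no measure of neurons here. Of the neuronal structure genes, Stmn1 rose by 0.26 ± 0.06, Tuba1a by 0.29 ± 0.08 and Nsg1 by 0.41 ± 0.11. Adjusted p-values for these genes are below 0.05 by edgeR, as for the counts.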

How the data were processed

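Single-cell RNA of gastruloids was measured with the 10x 3′ v3.1 assay in 18 lanes. The count matrices deposited by the authors hold raw UMI counts per gene and cell, made with Cell Ranger 6.0.0 on mm10 (GRCm38), per the submitters' processing notes, which also name Seurat. Cell type names, days and gastruloid barcodes came from the authors' deposited cell table, which lists 77674 cells, 53730 of them with the barcode of 1 gastruloid; doublets were taken as that table leaves them. No source used here says how the names were assigned.

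Counts were summed per gastruloid with at least 30 cells, or per gastruloid and cell type name with at least 20. Sums ran from 1293296 to 57333371 UMIs. They were tested with edgeR 4.0.16 (R 4.3.3; filterByExpr, TMM scaling, quasi-likelihood F test, Benjamini-Hochberg adjustment over all genes tested, threshold 0.05); SE is the log2 fold change divided by the square root of F. CPM are counts scaled to a total of 1000000 without TMM, so they can differ in size from the fold change. Only the groups compared entered a fit. Gastruloids are the replicates; they share 1 cell line and its culture, so p-values measure the spread between gastruloids only. On simulated counts with 100 genes changed 2-fold, edgeR recovered 99% for day 4 against 3.5 (13410 genes), 85% for day 4.5 against 4 in MULTI-seq 2 (11100 genes) and 77% for Late Spinal Cord cells of day 5 (9542 genes). For 100 genes changed 4-fold it recovered 94%, 91% and 97%. False calls made up 2.03%, 3.8% and 5.4% of the calls. The recovered shares are averages over the changed genes and are no rate for single genes of the 10.

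Shares of cells were taken after thinning each cell to 5000 UMIs, which left out 2.06% of MULTI-seq 1 cells. Intervals are exact at 95% (Poisson for counts, Clopper-Pearson for shares) and cover counting error only. Tables used Python 3.11.15, numpy 2.4.6, pandas 2.3.3 and scipy 1.17.1, and figures matplotlib 3.10.9. Promoter windows are RefSeq's (GRCm38.p6) and gene positions GENCODE's.

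The members and the gene lists were chosen with earlier results of these data known. Named besides the 10 members are, per list and comparison, at most the 3 called genes of highest level and the 2 of largest change, and the 10 genes most like the members over cell types; genes named in Neurons and beside Neurog2 come from the same lists and were chosen after their values were seen. Alternatives were DESeq2 1.42.0, no filter on low counts, library size alone, more cells per gastruloid and each lane left out. The day 3 and 3.5 pools of MULTI-seq 2 were not analysed here; pool C and the 10X lanes carry no gastruloid calls and entered no comparison.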

Additional observations from a re-analysis of the deposited data

Results flagged for a closer look

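In 4 of 37 checks, each of 1 gene in 1 group of gastruloids, the highest gastruloid stood apart from the others by Dixon's test at the 95% level. Chance alone flags about 1 in 20 independent checks, but checks of different genes here share gastruloids and are not independent. Elavl4 in Late Spinal Cord cells of day 4.5 in MULTI-seq 3 measured 24.3 CPM in 1 gastruloid and 15.6 CPM in the next of 7. Neurog1 measured 1.90 CPM in 1 of the same 7 gastruloids and 0 in the others. Dcx in Early Spinal Cord cells of day 4.5 in MULTI-seq 2 measured 0.516 CPM in 1 of 8 gastruloids and 0 in the others. For these Neurog1 and Dcx groups, any single gastruloid with a UMI is flagged whatever its value, so that rate of chance does not hold for them. Neurog2 in Early Posterior PSM cells of day 3.5 in MULTI-seq 3, a mesodermal name, measured 0.883 CPM in 1 gastruloid and 0.259 CPM in the next of 10.

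Lanes outside the comparisons held the genes too. Above 3 UMIs stood 10 of the 10 genes in the 10X lane of day 3 and in pool C of MULTI-seq 2, and 8 of 10 in the 10X lane of day 4, where Neurog1 and Dcx had 0 UMIs. These lanes have no gastruloid calls, so no spread between gastruloids can be given.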

How the results depend on the processing

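Of the summary results under their alternatives, 83 stayed within 1.5 times the reported count and 21 did not. For single genes, 487 results stayed called or stayed uncalled, 39 lost the call and 4 gained it. Of results called in at least 1 of the 2 settings, 0 reversed direction. For genes called in neither setting, direction was not compared. Genes that an alternative could not fit are left out of these counts. Leaving out each lane in turn gave 6 calls throughout for day 4 against 3.5 and 5 for Early Posterior PSM. It gave 0 to 1 for day 4.5 against 4 in MULTI-seq 2, 2 to 4 for day 5 between experiments, 0 to 1 for day 4.5, 0 to 2 for day 4, 3 to 5 for Late Spinal Cord, 2 to 4 for Early Spinal Cord and 2 to 3 for Caudal Epiblast. For day 4.5 between experiments, DESeq2 and library size alone each gave 1 call. For day 4 between experiments, a minimum of 100 cells, no filter and library size alone each gave 0. In Late Spinal Cord, library size alone gave 3; with 50 cells, Early Spinal Cord gave 2 and Caudal Epiblast 0. The causes were not tested. Library size alone moved the share of higher calls from 47.1% to 18.1% for day 5, from 49.5% to 13.9% for Late Spinal Cord and from 49.9% to 77.3% for day 4. Leaving out cells named Neurons, added after the data were seen, changed no call. Neurog1 and Dcx passed the filter on low counts in no comparison. No paired analysis was possible because the labels' replicate numbers name lanes of 1 pool, and gastruloids of different groups share no number.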

Other observations

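In the lanes without gastruloid calls, Stmn2 measured 92.6 CPM at day 4 in the 10X lane and 120 CPM in pool C of MULTI-seq 2. Ina measured 69.9 CPM in the 10X lane of day 3 and 28.3 CPM in that of day 4, and Elavl4 1.83 and 5.59 CPM. No cell of the 2 10X lanes was named Neurons, and 10 cells of pool C were.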
